A study of Mus musculus with 50 samples.

Results

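The muscle miRNAs of mouse serum were followed as 5 mature miRNAs, mmu-miR-1a-3p, mmu-miR-133a-3p, mmu-miR-133b-3p, mmu-miR-206-3p and mmu-miR-499-5p. They were chosen by name from the 1892 entries of a count table, of which 925 had a count in any library. Small RNA from the blood serum of C57BL/6 mice aged 8 to 12 weeks was sequenced in 25 libraries, 5 from each of 5 groups. MCAO mice had the left middle cerebral artery blocked with a filament for 30 min, followed by 150 min of reperfusion before blood was taken. MCAO_Sham mice had the same preparation without the filament entering that artery. ICH mice had 20 µL of their own blood infused into the striatum through a drilled hole, as a model of intracerebral hemorrhage, and ICH_Sham mice had the needle placed with nothing injected. Naive mice were untreated, so all 4 other groups had been anesthetized and operated on. The labels do not say whether a library is 1 mouse or a pool, and the p-values below measure the spread between libraries.

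These miRNAs are made almost only in striated muscle, where they are cut from precursors transcribed with the muscle differentiation program. miR-1 and miR-133 act in skeletal muscle and heart, miR-206 and miR-133b mainly in skeletal muscle, and miR-499 lies within a slow myosin gene and is found in heart and slow skeletal fibers. miR-1 and miR-206 are close relatives that share targets, as are miR-133a and miR-133b. In blood they are used as markers of muscle injury. In serum, more injured cells and more miRNA released per cell cannot be told apart.

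Mature sequences from RefSeq (GRCm38.p6) were matched for 3 of the 5 members and for miR-208a and miR-208b, relatives of miR-499. mmu-miR-1a-3p and mmu-miR-133a-3p are given by name. The matched sequences follow. These are shown 5′ to 3′, with the seed, bases 2 to 8, in capitals. Each of the 5 members is reported separately here, whatever its seed.
mmu-miR-206-3p: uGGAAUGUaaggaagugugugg
mmu-miR-133b-3p: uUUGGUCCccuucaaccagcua
mmu-miR-499-5p: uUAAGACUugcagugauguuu
mmu-miR-208a-3p: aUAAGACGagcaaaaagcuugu
mmu-miR-208b-3p: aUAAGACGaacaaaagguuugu
The 3 matched members have 3 different seeds. The seeds of miR-1a-3p and miR-133a-3p were not compared with these. miR-499-5p has the same bases 2 to 7 as miR-208a-3p and miR-208b-3p but not the same base 8, and over 21 positions it is identical to them at 12 and 10.

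All 5 members were counted in all 25 libraries, at very unequal levels. miR-206-3p had 51182 counts (1.91% of all counts, rank 11 of all entries) and miR-1a-3p had 46419 (1.73%, rank 13). miR-133a-3p followed with 5484 counts (0.205%) and miR-133b-3p with 2400 (0.0896%), while miR-499-5p had 229 (0.00855%, rank 190). With 1 to 22 counts a library, miR-499-5p was too shallow for small differences to be detectable. miR-208a and miR-208b, which lie in introns of the genes Myh6 and Myh7, were at or near 0. miR-208a-3p had 1 count and miR-208b-3p 3 counts over all 25 libraries, and both of their 5p arms had 0. Whether any of the members' counts came from heart was not tested. The opposite arms of the members were as rare, with 4 counts of miR-133a-5p, 2 of miR-1a-1-5p and 0 of miR-1a-2-5p, miR-133b-5p, miR-206-5p and miR-499-3p. Both arms of miR-1b were also at 0. Together the 5 members made up 2.58% ± 0.727 (SD, n = 5) of counts in Naive, 2.78% ± 1.04 in MCAO_Sham, 3.64% ± 1.58 in MCAO, 4.44% ± 1.96 in ICH and 5.34% ± 1.03 in ICH_Sham.

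Library totals ran from 38393 to 315646 counts and were lowest in Naive (38393 to 83564). Levels below are CPM, the counts a library would hold at a fixed total after its TMM scaling factor (trimmed mean of M values) is applied, and fold changes are log2 values with standard errors from edgeR, tested over 199 miRNAs with Benjamini-Hochberg adjustment. 3 libraries stood apart with TMM factors under 0.75 (MCAO 2, ICH_Sham 1 and Naive 2), and values without them are given beside the calls that were lost. The labels give an index tag number for each library but no tag ranges. The tags were divided here into a lower and an upper range. The cut lay between ICH_Sham 5, the highest tag of the lower range, and MCAO 1, the lowest of the upper. Tag numbers run on without a gap at this cut, and values for other cuts are not given. The lower range of index tags covered all ICH and ICH_Sham libraries, 3 of 5 MCAO, 2 of 5 MCAO_Sham and 1 of 5 Naive libraries. Whether the ranges stand for any technical difference is not given in the labels. For ICH and ICH_Sham against Naive, tag range and group cannot be told apart beyond that 1 Naive library.

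miR-206-3p, the skeletal muscle relative of miR-1, was highest after the stereotactic sham operation. In replicate order it was at 30994, 22608, 31705, 23573 and 26702 CPM in ICH_Sham, and at 21442, 16412, 10558, 13865 and 17858 CPM in Naive. The ICH_Sham and Naive ranges did not overlap. Here and below, the share of all 199 miRNAs with separate ranges was not determined, so overlap is given as description only. In ICH it was at 14181, 22859, 16697, 27249 and 17223 CPM. In MCAO it was at 13362, 24649, 11177, 27515 and 9743 CPM. In MCAO_Sham it was at 11275, 23635, 11877, 11559 and 12586 CPM, with 1 library (MCAO_Sham 2) far above the other 4. By group mean the order was ICH_Sham (27117 ± 4158, SD, n = 5), ICH (19642 ± 5305), MCAO (17289 ± 8192), Naive (16027 ± 4105) and MCAO_Sham (14186 ± 5305), and the ranges of every pair of neighbors in it overlapped.

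miR-133b-3p, transcribed with miR-206, was lowest in Naive and highest in ICH_Sham. It was at 498, 233, 256, 510.1 and 295 CPM in Naive. It was at 1431, 1536, 2142, 1021 and 718 CPM in ICH_Sham, again with no overlap with Naive. In MCAO_Sham it was at 1732, 1225, 650.0, 759 and 423 CPM, and 4 of those 5 libraries lay above all Naive ones. In MCAO it was at 958, 636, 422, 1736 and 496 CPM, and in ICH at 229.9, 654, 883, 1388 and 916 CPM. ICH 1 was the lowest of all 25 libraries for this miRNA. Group means were 1369.6 ± 542 CPM in ICH_Sham, 958 ± 522 in MCAO_Sham, 849.6 ± 536 in MCAO, 814 ± 422 in ICH and 358 ± 135 in Naive. The ranges of ICH and Naive also overlapped, through ICH 1.

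miR-1a-3p, shared by skeletal muscle and heart, was low in 2 groups and high in the other 3. The Naive libraries were at 6083, 9478, 4946, 12752 and 7773 CPM, and the MCAO_Sham libraries (replicates 1, 2, 4, 5 and 7) at 7011, 14956, 8244, 10895 and 4012 CPM. These groups overlapped almost throughout. The MCAO libraries were at 18128, 29926, 15442, 29623 and 9183 CPM, so that 4 of 5 lay above every MCAO_Sham library. The ICH libraries were at 14311, 25253, 13352, 36175 and 12832 CPM and the ICH_Sham libraries at 20665, 24803, 26496, 19222 and 14598 CPM. All 10 of these lay above the highest Naive library, by as little as 12832 against 12752. Group means were 21157 ± 4712 in ICH_Sham, 20460.3 ± 9101 in MCAO, 20384.5 ± 10203 in ICH, 9024 ± 4137 in MCAO_Sham and 8206 ± 3066 in Naive, and the ranges of ICH and MCAO_Sham overlapped. The 2 low groups also had the smallest median library totals, 39237 counts in Naive and 80821 in MCAO_Sham, against 114128 in ICH_Sham, 118643 in ICH and 130309 in MCAO; values at equal depth are given below.

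miR-133a-3p followed miR-133b-3p at a higher level. It was at 1342, 1247, 564, 1901 and 997 CPM in Naive and at 3307, 3331, 4945, 2677 and 1506 CPM in ICH_Sham, where 4 of 5 libraries lay above all Naive ones. In MCAO_Sham it was at 3314, 3674, 1366, 1575 and 1101 CPM, in MCAO at 2029.5, 1413, 905, 3893 and 1208 CPM, and in ICH at 349.8, 1337, 2065, 2931 and 1911 CPM. These 3 groups overlapped each other and Naive. miR-499-5p had 12, 3, 2, 3 and 3 counts in Naive, 5, 11, 11, 6 and 4 in MCAO_Sham, 11, 11, 7, 22 and 8 in MCAO, 16, 7, 13, 10 and 12 in ICH_Sham and 1, 13, 7, 21 and 10 in ICH. Its group means lay between 78.4 ± 42.9 CPM (Naive) and 105 ± 30.6 CPM (ICH_Sham), closer together than the spread within any group.

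**Figure D1:**
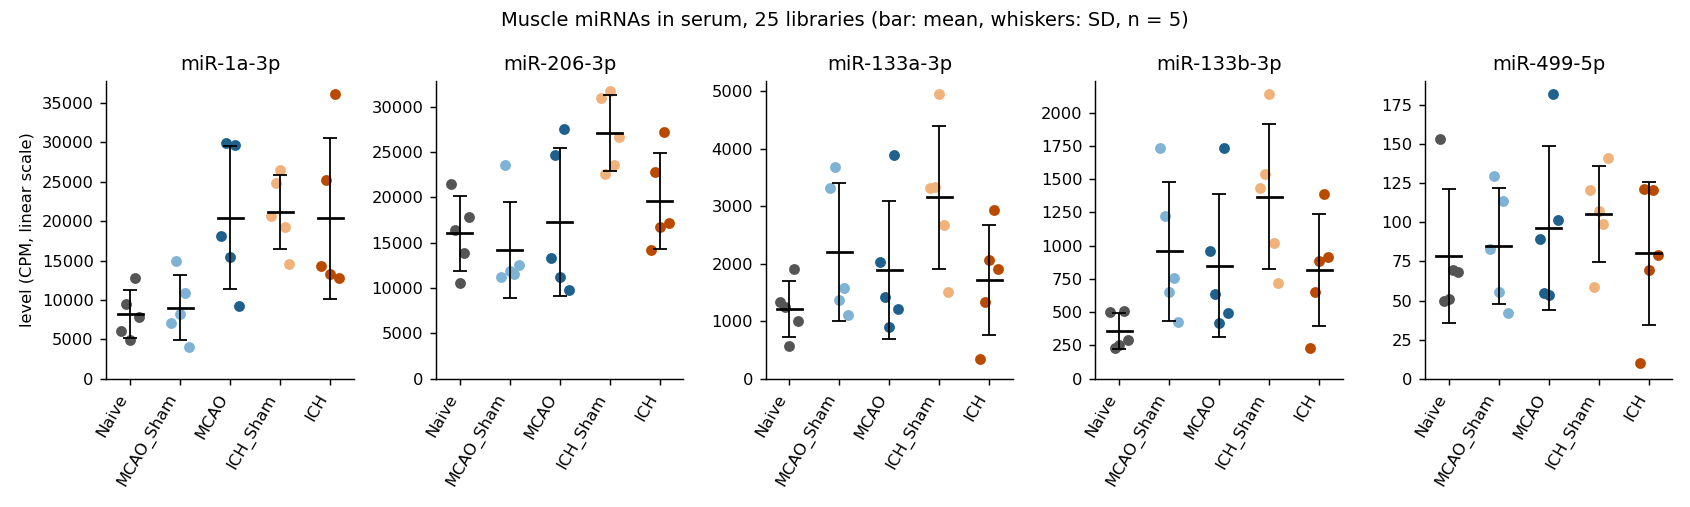
Level of each muscle miRNA in CPM (linear axes starting at 0) in the 25 libraries by group; points are libraries, bars are means and whiskers are SD (n = 5). All 5 members have their highest mean in ICH_Sham, and miR-1a-3p is low in Naive and MCAO_Sham and high in the other 3 groups.

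The comparison of each sham operation with untreated mice covers anesthesia and surgery together, and the Naive libraries also had the lowest totals. In ICH_Sham against Naive, 2 of the 5 members rose and none fell, where 6.53% of the 199 miRNAs passed in either direction and 3.52% were higher. miR-133b-3p rose by 1.92 ± 0.45 (edgeR adjusted p = 0.00795, higher in 5 of 5 libraries than any Naive), the largest log2 increase of the 199 miRNAs. The rise of miR-1a-3p was 1.37 ± 0.35 (adjusted p = 0.0103), the 5th largest. miR-133a-3p at 1.38 ± 0.46 (adjusted p = 0.0734) and miR-206-3p at 0.76 ± 0.27 (adjusted p = 0.103) did not pass in edgeR, and miR-499-5p was at 0.31 ± 0.48 (adjusted p = 0.814). miR-133a-3p did pass with DESeq2 (1.37, adjusted p = 0.0273), in run 2 alone (1.51, adjusted p = 0.0164) and after thinning to equal totals (1.33, adjusted p = 0.0438). The median of the 5 was 1.37, against -0.05 over all miRNAs tested. With a term for the tag range the call of miR-1a-3p was lost (1.47, adjusted p = 0.0754) and miR-206-3p was at 0.50 (adjusted p = 0.427). Without the 3 libraries of low TMM factor that of miR-133b-3p was lost (1.77, adjusted p = 0.0527). Against the single Naive library in the lower tag range, ICH_Sham was higher by 1.77 for miR-1a-3p, 1.36 for miR-133b-3p, 1.13 for miR-133a-3p and 0.33 for miR-206-3p, and miR-499-5p was at -0.60.

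The vascular sham operation gave a different set of values. In MCAO_Sham against Naive, edgeR called 0 of 5 members (0.503% of miRNAs passed), as did DESeq2 and limma voom, and before adjustment 1 member had p under 0.05. That member was miR-133b-3p at 1.38 ± 0.45 (p = 0.00497, adjusted p = 0.191), the 2nd largest log2 value of the 199. miR-133a-3p was at 0.85 ± 0.46, miR-1a-3p at 0.14 ± 0.34, miR-499-5p at -0.08 ± 0.50 and miR-206-3p at -0.18 ± 0.27. Both comparisons use the same Naive libraries. Within the tag ranges miR-133b-3p was 0.07 higher in the lower range (2 libraries against 1) and 1.93 higher in the upper range (3 against 4).

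Set directly against each other, MCAO_Sham and ICH_Sham gave negative log2 values for all 5 members, from -1.23 to -0.39 (median -0.54, against 0.03 over all miRNAs), with MCAO_Sham the lower. edgeR called 0 of 5 members and 0% of the 199 miRNAs. Before adjustment 2 members and 25 miRNAs had p under 0.05. By DESeq2 2 members and 6 of the 199 miRNAs passed, and by limma voom 0 of either. miR-1a-3p at -1.23 ± 0.34 (adjusted p = 0.0842) and miR-206-3p at -0.93 ± 0.27 (adjusted p = 0.0884) were the 3rd and 4th of the 199 by p. These were also the 2 members that DESeq2 called (adjusted p = 0.0311 and 0.0313). Both passed in edgeR without MCAO_Sham 2 (-1.50, adjusted p = 0.0246, and -1.22, adjusted p = 0.0203) and without MCAO 5 (-1.25 and -0.96, both with adjusted p = 0.0464). Of the 199 miRNAs, 4 passed without MCAO_Sham 2 and 3 without MCAO 5. MCAO 5 is in neither group and enters this comparison only through the scaling and spread shared by all libraries.

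The stroke models were compared with their own sham operations. MCAO differed from its sham by the filament in the artery with reperfusion, and ICH from its sham by the infused blood. Median library totals also differed between MCAO and MCAO_Sham (130309 against 80821), so these comparisons do not isolate the brain lesion. In MCAO against MCAO_Sham, 1 of 5 members passed, against 7.54% of all miRNAs in either direction and 5.53% higher. In these libraries miR-1a-3p rose by 1.18 ± 0.34 (edgeR adjusted p = 0.0257), the 12th largest log2 increase of the 199. miR-206-3p was at 0.29 ± 0.27 (adjusted p = 0.459), miR-499-5p at 0.23 ± 0.44, miR-133b-3p at -0.15 ± 0.41 and miR-133a-3p at -0.22 ± 0.44. In the lower tag range miR-1a-3p was 2.06 higher in MCAO (3 libraries against 2), and in the upper range 0.30 higher (2 against 3). The call was lost without the 3 libraries of low TMM factor (0.95, adjusted p = 0.173), without MCAO 2 (0.95, adjusted p = 0.183), without MCAO 4 (1.01, adjusted p = 0.0673), without MCAO_Sham 1 (1.10, adjusted p = 0.0769) and without MCAO_Sham 7 (0.97, adjusted p = 0.0929). It was also lost with the red cell ratio, log2 of miR-451a over miR-23a-3p, as a covariate (0.80, adjusted p = 0.269). That ratio averaged -0.68 ± 0.69 in MCAO and -1.59 ± 1.03 in MCAO_Sham, and its part in the result was not tested further.

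In ICH against ICH_Sham no member passed. edgeR called 0 of 5 members and 0% of the 199 miRNAs. Before adjustment 0 members and 20 miRNAs had p under 0.05. The other tools run, limma voom and DESeq2, also passed 0 of 5. All 5 log2 values were below 0, from -0.87 ± 0.44 for miR-133a-3p (adjusted p = 0.462) and -0.74 ± 0.40 for miR-133b-3p (adjusted p = 0.472) to -0.47 ± 0.27 for miR-206-3p, -0.33 ± 0.42 for miR-499-5p and -0.05 ± 0.34 for miR-1a-3p. 3 of 5 ICH libraries lay below every ICH_Sham library for miR-206-3p and 3 of 5 for miR-1a-3p, while ICH 4 lay above every ICH_Sham library for miR-1a-3p.

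The difference between both stroke effects was tested as an interaction. edgeR called 0 of 5 members (1.01% of miRNAs passed). Before adjustment 1 member had p under 0.05, and limma voom and DESeq2 passed 0. For miR-1a-3p the effect of MCAO exceeded that of ICH by 1.24 ± 0.48 (p = 0.0157, adjusted p = 0.223), so the rise after MCAO is not shown to differ from the value after ICH. The other 4 were between 0.56 and 0.75, with adjusted p from 0.301 to 0.619.

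**Figure D2:**
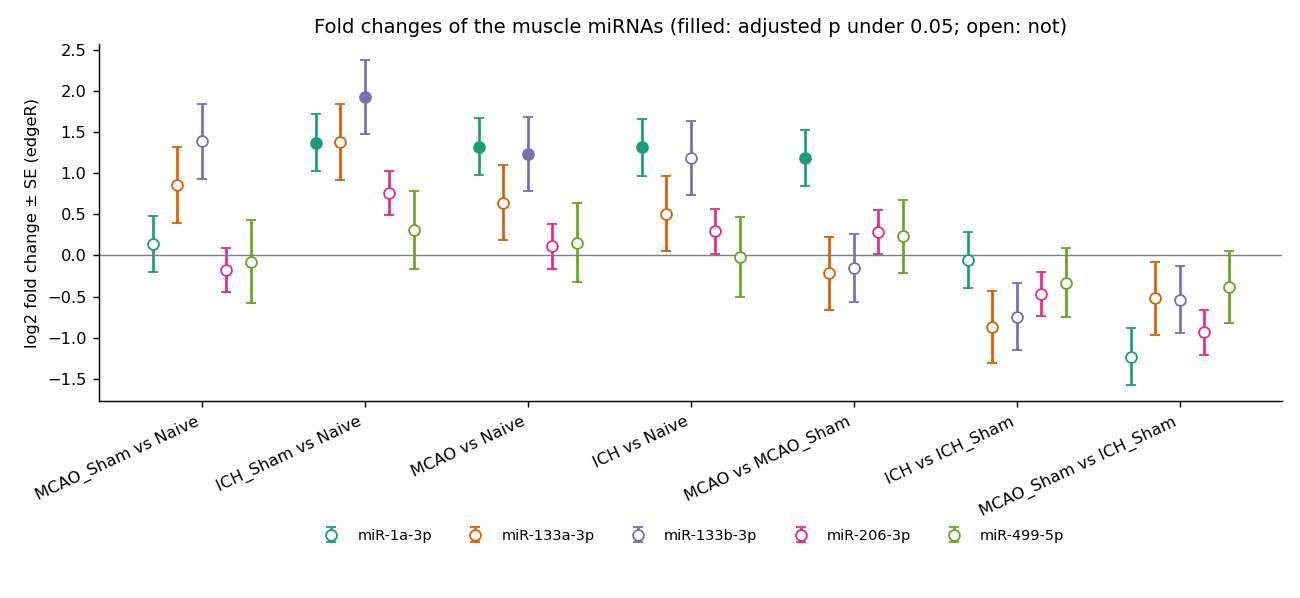
Log2 fold change (edgeR, ± SE) of each muscle miRNA in 7 comparisons; filled points passed an adjusted p under 0.05 and open points did not. The 4 comparisons on the left share the Naive libraries, and there miR-133b-3p lies between 1.18 and 1.92 and miR-1a-3p at 0.14 in MCAO_Sham but above 1.3 in the other 3.

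Against untreated mice, both stroke groups had more miR-1a-3p. In MCAO against Naive, 2 of 5 members rose, where 30.7% of all 199 passed and 17.6% were higher. The increase of miR-1a-3p was 1.32 ± 0.35 (edgeR adjusted p = 0.00784) and that of miR-133b-3p was 1.23 ± 0.45 (adjusted p = 0.0391). In ICH against Naive, 1 of 5 rose, where 14.6% of all passed and 8.54% were higher. The increase of miR-1a-3p was 1.31 ± 0.35 (adjusted p = 0.00993), while miR-133b-3p was at 1.18 ± 0.45 (adjusted p = 0.0750). miR-133a-3p was at 0.64 ± 0.45 in MCAO and 0.51 ± 0.45 in ICH, miR-206-3p at 0.11 ± 0.27 and 0.29 ± 0.27, and miR-499-5p at 0.16 ± 0.48 and -0.02 ± 0.48. None of these 6 values passed. The call of miR-1a-3p in ICH was lost without ICH 4 (1.002, adjusted p = 0.0628), and that in MCAO without the 3 libraries of low TMM factor (1.13, adjusted p = 0.0563). The call of miR-133b-3p in MCAO did not hold when any 1 of 13 libraries was left out (all 5 Naive libraries, MCAO 1, MCAO 2, MCAO 4, MCAO_Sham 2, MCAO_Sham 4, ICH 3, ICH_Sham 1 and ICH_Sham 4). The sham and ICH libraries among these are in neither group and enter only through the scaling and spread shared by all libraries. Over all fits without 1 library miR-133b-3p in MCAO lay between 0.80 and 1.40, with adjusted p from 0.0257 to 0.173. Without the 3 libraries of low TMM factor it was at 1.11 (adjusted p = 0.148). Within the upper tag range it was 1.16 higher in MCAO (2 libraries against 4), and within the lower 0.64 higher (3 against 1). For miR-1a-3p the corresponding values were 0.64 and 1.98, and ICH was 1.61 above the 1 Naive library of the lower range.

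With all 4 operated groups set against Naive, 2 of 5 members rose, where 8.54% of the 199 passed and 5.03% were higher. miR-133b-3p rose by 1.43 ± 0.39 (edgeR adjusted p = 0.0182) and miR-1a-3p by 1.03 ± 0.29 (adjusted p = 0.0216), while miR-133a-3p was at 0.84 ± 0.38 (adjusted p = 0.139), miR-206-3p at 0.25 ± 0.22 and miR-499-5p at 0.09 ± 0.42. Both calls were lost in some fits. With the tag range term miR-1a-3p was at 1.11 (adjusted p = 0.0729), and without the 3 libraries of low TMM factor miR-133b-3p was at 1.28 (adjusted p = 0.0640). miR-133b-3p missed the threshold without Naive 3 (1.31, adjusted p = 0.0665) or Naive 5 (1.34, adjusted p = 0.0755), and miR-1a-3p without Naive 1 (0.91, adjusted p = 0.0748), Naive 3 (0.87, adjusted p = 0.0774) or Naive 5 (0.99, adjusted p = 0.0755). Because 3 of the 5 Naive libraries were the smallest of all, every library was also thinned to 38393 counts. miR-1a-3p kept its calls there, with 1.13 between MCAO and MCAO_Sham (edgeR adjusted p = 0.0362) and 1.22, 1.27 and 1.30 in MCAO, ICH and ICH_Sham against Naive (adjusted p = 0.00919, 0.0111 and 0.0161). Thinning draws counts at random and leaves each expected share as it was, so it cannot separate group from library total. Over the 25 libraries, log2 CPM of miR-1a-3p had r = 0.59 with log2 library total, the highest of the 5 members (miR-206-3p 0.41). The part of library total in the results was not tested further.

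Markers of other sources moved in some of the same comparisons. Of 4 red cell miRNAs tested, only the joint entry of miR-486-5p with miR-3107-5p passed. Its log2 value was -0.98 in MCAO against MCAO_Sham and, against Naive, -0.89 in ICH_Sham, -1.31 in MCAO and -1.42 in ICH. The other red cell miRNAs did not all go the same way. Between MCAO and MCAO_Sham miR-451a was at 0.30, miR-144-3p at 0.15 and miR-486-3p at -0.60. The summed level of the 5 red cell entries was 39409 to 73684 CPM in Naive, 24614 to 64717 in MCAO_Sham, 18411 to 32065 in MCAO, 22014 to 38348 in ICH_Sham and 16836 to 26624 in ICH. That sum mostly follows the joint entry, which had 65640 counts over all libraries against 14827 of miR-451a. Both skin miRNAs, miR-203-3p (1.37) and miR-205-5p (1.84), rose in ICH against Naive, where their sum was 8114 to 35419 CPM against 4464 to 10558. Among 4 smooth muscle entries 1 passed, miR-145a-5p, which fell by 1.04 in ICH against Naive, with the sum at 24985 to 113701 CPM in ICH and 30211 to 80694 in Naive. Liver miR-122-5p and the myeloid and platelet entries passed in none of the 9 comparisons. The summed liver level reached 448257 CPM in ICH_Sham 1 and 450460 in Naive 2, which are both among the 3 libraries of low TMM factor. A low factor raises CPM above the plain share of counts. The part of these sources in the results was not tested.

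The ratios between members departed from counting noise to very different degrees. miR-133a-3p over miR-133b-3p had a median of 2.22, and its spread over 25 libraries was near counting noise (chi-square per degree of freedom 1.36, 24 degrees of freedom). The ratio was 2.69, 5.36, 2.20, 3.73 and 3.38 in the Naive libraries and between 1.52 and 3 in the other 20, on 10 to 39 counts of miR-133b-3p in Naive. How the authors treated reads that match both of these near-identical miRNAs is not given in the sources used here, so how the reads divide between them is uncertain.

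The ratios to miR-499-5p, on 1 to 22 counts a library, had a chi-square per degree of freedom of 1.45 for miR-206-3p, 2.05 for miR-133a-3p, 2.12 for miR-133b-3p and 3.91 for miR-1a-3p. The other 5 pairs ranged from 17.9 to 122. Counting noise is the only error in this measure, which takes no account of biological spread between libraries. The measure also grows with the number of counts, so it does not rank pairs by how constant their ratio was. From lowest to highest library, miR-133a-3p over miR-133b-3p spanned 3.52-fold and miR-1a-3p over miR-206-3p 4.87-fold. The ratios of miR-206-3p and miR-1a-3p to miR-499-5p spanned 14.8-fold and 36.1-fold, on few counts of miR-499-5p. miR-1a-3p over miR-206-3p had a chi-square per degree of freedom of 122, with group medians of 0.468 in Naive, 0.633 in MCAO_Sham, 0.815 in ICH_Sham, 1.01 in ICH and 1.21 in MCAO. In MCAO it was 1.36, 1.21, 1.38, 1.08 and 0.943, and in MCAO_Sham 0.622, 0.633, 0.694, 0.943 and 0.319, so the lowest MCAO library and the highest sham library met. miR-1a-3p over miR-133a-3p (chi-square per degree of freedom 55.3) had medians of 4.07 in MCAO_Sham, 7.18 in ICH_Sham, 7.60 in Naive, 8.93 in MCAO and 12.3 in ICH, and reached 40.9 in ICH 1 and 21.2 in MCAO 2.

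**Figure D3:**
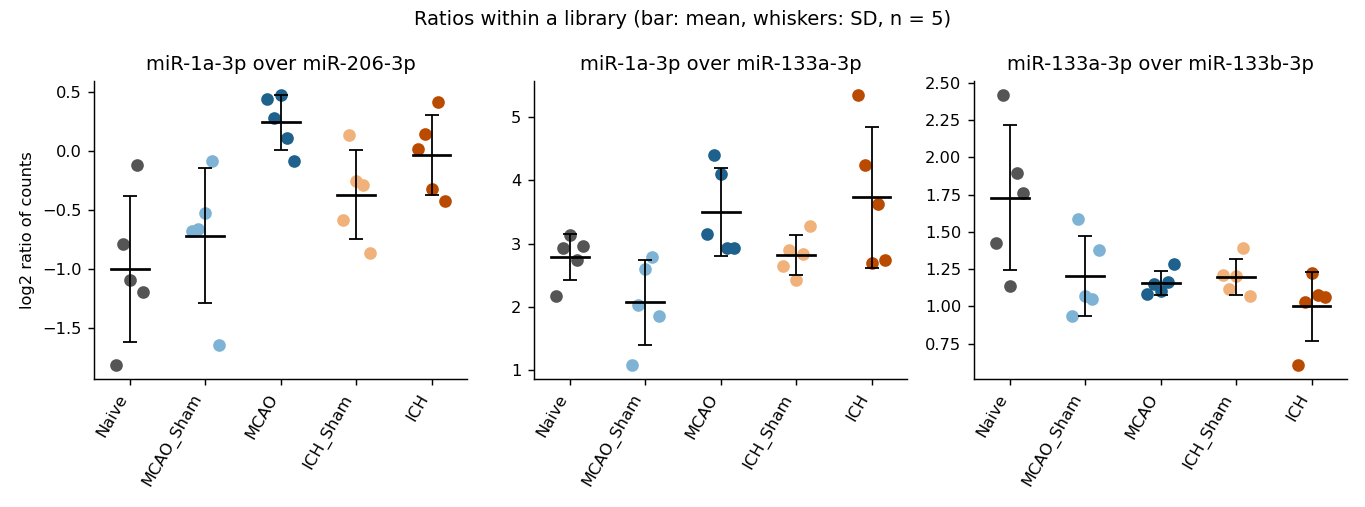
Log2 ratios of counts within each library for 3 pairs of muscle miRNAs; points are libraries, bars are means and whiskers are SD (n = 5). miR-1a-3p over miR-206-3p is highest in MCAO and lowest in Naive by median, and miR-133a-3p over miR-133b-3p is tight except in Naive.

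Over the 25 libraries, log2 CPM of all 10 pairs of members correlated positively, and 9 passed after Benjamini-Hochberg adjustment over the 10 (two-sided permutation test, 100000 resamples). miR-133a-3p and miR-133b-3p had Pearson r = 0.93 and Spearman rho = 0.96, both with p = 1e-05, the smallest these permutations can give, and r = 0.92 without the 2 libraries farthest from the median. miR-1a-3p and miR-206-3p had r = 0.69 and rho = 0.71 (permutation p = 0.00019 and 1e-04, adjusted p = 0.00095 and 0.0005), and r = 0.64 without the 2 farthest. miR-1a-3p and miR-499-5p, with r = 0.30 and rho = 0.36, did not pass (permutation p = 0.142 and 0.0819, adjusted p = 0.142 and 0.0819). The other 7 pairs had r between 0.50 and 0.66 and adjusted permutation p from 0.0012 to 0.0113. After each group's mean was removed the 10 values of r lay between 0.32 and 0.94. In the 16 libraries of the lower tag range they lay between 0.29 and 0.98. In the 9 of the upper range miR-206-3p had r = 0.04 with miR-133b-3p and 0.14 with miR-499-5p. The other pairs lay there between 0.38 and 0.88. An r over 9 libraries is imprecise, and the difference between the tag ranges was not tested. As background, the median r over all 19701 pairs of the 199 miRNAs was 0.0045, and 50.6% were positive.

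**Figure D4:**
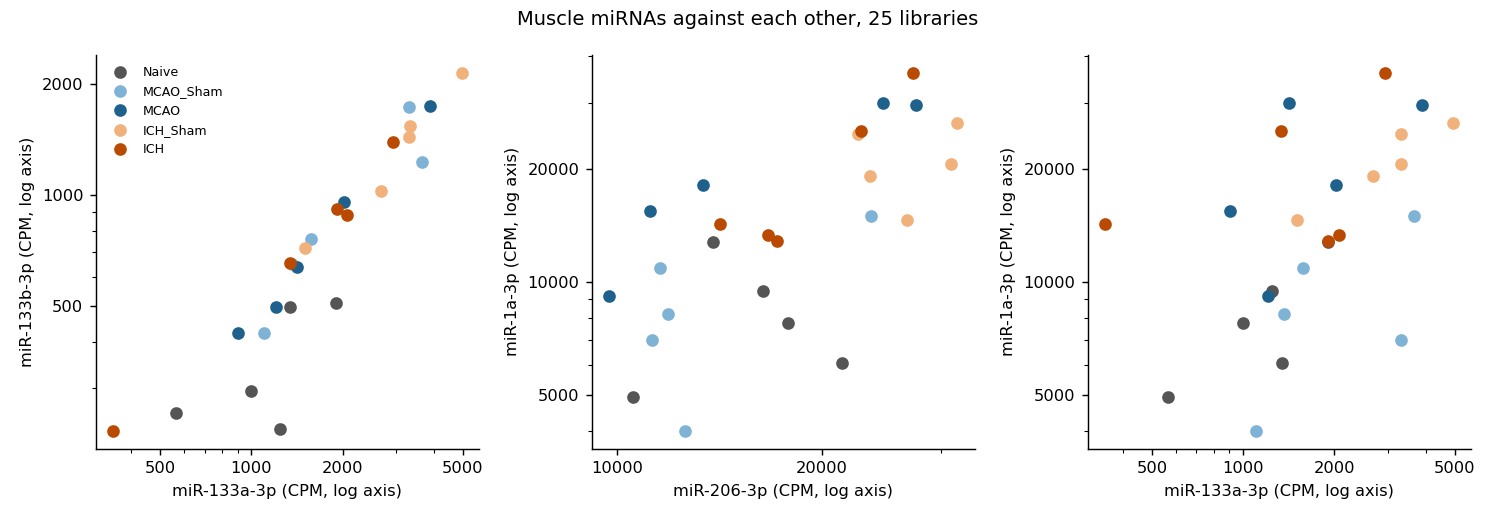
CPM of pairs of muscle miRNAs in the 25 libraries (both axes logarithmic), colored by group. miR-133a-3p and miR-133b-3p lie along 1 line (r = 0.93), whereas miR-1a-3p against miR-206-3p (r = 0.69) and against miR-133a-3p (r = 0.51) scatter more widely.

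Members from 1 locus were not the most closely correlated. In GRCm38 (GENCODE M21), Mir206 (chromosome 1, 20679010 to 20679082, plus strand) and Mir133b (chromosome 1, 20682769 to 20682887, plus strand) both lie in exons of the lincRNA Gm28653. Their mature products had r = 0.53. miR-1a-3p and miR-133a-3p each come from a pair of hairpins that cannot be told apart in these counts. Mir1a-1 (chromosome 2, 180389048 to 180389124) and Mir133a-2 (chromosome 2, 180398379 to 180398482) lie on the plus strand with no annotated gene over them. Mir1a-2 (chromosome 18, 10785481 to 10785552) and Mir133a-1 (chromosome 18, 10782909 to 10782976) lie on the minus strand in introns of Mir133a-1hg, opposite an intron of Mib1, and Mir1a-2 also overlaps Mir1b on the other strand. Their products had r = 0.51. Mir499 (chromosome 2, 155622880 to 155622958, plus strand) lies in an intron of the myosin gene Myh7b. The closest pair, miR-133a-3p with miR-133b-3p at r = 0.93, comes from different chromosomes. How reads were divided between these near-identical miRNAs is uncertain, so this r may not reflect 2 separate signals.

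The miRNAs outside the list whose log2 CPM was most like the members over the 25 libraries were mainly of the miR-378 family. For miR-1a-3p they were miR-378c (r = 0.75), miR-27b-3p (0.73) and miR-378a-3p (0.71). For miR-133a-3p they were miR-378a-3p (0.68), miR-378c (0.65) and miR-378b (0.62), and for miR-133b-3p miR-434-3p (0.69), miR-378a-3p (0.64) and miR-378b (0.61). For miR-206-3p they were miR-378a-3p (0.58), miR-378c (0.53) and miR-378a-5p (0.52), and for miR-499-5p miR-378a-5p (0.60), miR-24-3p (0.57) and miR-214-3p (0.45). These are descriptions over libraries that share their scaling and groups.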

How the data were processed

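The table that the authors deposited holds raw counts of mature miRNAs, 1892 entries by 50 columns. Of tools, the submitters' processing notes name Bowtie 0.12.9. Genome build, annotation release, trimming and the handling of multiply matching reads: not given in the sources used here. Per the labels' protocols, input volume and not RNA amount was held constant, so levels here are relative to the other miRNAs. The 2 columns of a library carry 1 index tag in the labels, differed about as much as counting noise does (0.792 to 1.27 chi-square units per degree of freedom) and were summed, giving 25 libraries. The labels call the sequencing paired-end, so treating the columns as separate runs is an assumption behind every count; each run alone was an alternative. Counting intervals would cover counting error only, since the labels name no molecular identifiers.

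edgeR 4.0.16 (quasi-likelihood, robust, TMM, filterByExpr with a minimum count of 10; R 4.3.3) was fitted to all 25 libraries with 1 mean per group and 20 residual degrees of freedom. It kept 199 miRNAs with 99.5% of counts, all 5 members among them. A call is a Benjamini-Hochberg adjusted p under 0.05 over the 199. DESeq2 1.42.0 and limma voom 3.58.1 were alternatives, with other scalings, filters, single runs, thinning, tag range, red cell ratio, replicate block and each library left out. Correlations used log2 CPM with a prior count of 2 (scipy 1.17.1). The fit was tested on simulated data. The text names the 5 members, their other arms, miR-208, source markers, and the 3 most alike miRNAs per member. Members and lists were chosen with earlier results of these data known.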

Additional observations from a re-analysis of the deposited data

Results flagged for a closer look

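In each group of 5 libraries the gap between the highest or lowest library and its neighbor was compared with the group's range, for the 5 members in 5 groups. Of these 25 sets, 2 were past Dixon's critical value of 0.71, where chance gives about 1 in 20. miR-206-3p in MCAO_Sham 2 was at 23635 CPM, with a gap of 0.894 of the range above the other 4 libraries. Without it the log2 value of miR-206-3p in MCAO_Sham against ICH_Sham went from -0.93 to -1.22 and passed (edgeR adjusted p = 0.0203). miR-499-5p in Naive 1 was at 153 CPM (12 counts, against 2 or 3 in the other 4 Naive libraries), with a gap of 0.810 of the range. That library is also the 1 Naive library of the lower tag range.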

How the results depend on the processing

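Counts of called members moved as follows. Between MCAO and MCAO_Sham the count of 1 became 0 with library totals alone, with only the groups compared in the fit, with the red cell ratio as a covariate and without the 3 libraries of low TMM factor, and was 0 to 1 without single libraries. In ICH_Sham against Naive the count of 2 became 5 with no scaling, 4 with only the groups compared, 3 with DESeq2, run 2 alone or thinning, and 1 with the tag range term or without the 3 libraries, and was 2 to 3 without single libraries. In MCAO against Naive 2 became 5 with no scaling, 0 without the 3 libraries, and 1 with limma voom, library totals, no filter, the tag range term, run 1 alone or both miR-133 entries summed, and 1 to 2 without single libraries. In ICH against Naive 1 became 4 with no scaling, 2 with DESeq2 or run 2 alone, and 0 to 2 without single libraries. In MCAO_Sham against Naive 0 became 2 with no scaling. Between the shams 0 became 2 with DESeq2, no filter, only the groups compared or the red cell covariate, and 0 to 2 without single libraries. For all operated groups 2 became 5 with no scaling, 1 with the tag range term, run 1 alone, without the 3 libraries or with miR-133 summed, and 0 to 2 without single libraries. Of the 199 miRNAs, no scaling called 64 in MCAO_Sham, 114 in ICH_Sham, 142 in MCAO and 125 in ICH against Naive. For all operated groups it called 161, and all of these calls were increases. With no scaling the median of all miRNAs itself moved by 0.88 to 1.34 against Naive, and relative to it miR-206-3p was at -0.27 in MCAO_Sham and miR-499-5p at -0.04 in ICH. With library totals alone that median was -0.20 between MCAO and MCAO_Sham, and miR-1a-3p was at 1.14 relative to it. The background itself moved too: the 15 miRNAs called between MCAO and MCAO_Sham became 43 with DESeq2, 29 with limma voom, 5 with library totals and 2 with the red cell covariate or without the 3 libraries, and the 61 in MCAO against Naive became 27 with library totals or the tag range term and 29 without the 3 libraries. Leaving out the 3 libraries and summing miR-133 were chosen after seeing the data. The 10 correlations kept their sign and their side of the threshold with prior counts of 0.5 and 5. In other respects the cause of a change was not tested.

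Of the uncalled log2 values, these changed sign. With no scaling every value shifts together, and relative to the median of all miRNAs none of the 6 such values given here rose above 0: between MCAO and MCAO_Sham miR-133a-3p was at -0.0689 and miR-133b-3p at 0, in ICH against its sham miR-1a-3p was at -0.0085, and in MCAO_Sham against Naive miR-499-5p was at -0.21. Between MCAO and MCAO_Sham miR-133a-3p was at 0.33 with no scaling and 0.13 with the red cell covariate, miR-133b-3p at 0.40 and 0.23, and miR-499-5p at -0.15 in run 1; miR-1a-3p in ICH against its sham was at 0.15 with no scaling. In MCAO_Sham against Naive miR-206-3p was at 0.62 with no scaling, and miR-499-5p at 0.0542 with library totals, 0.67 with no scaling, 0.0095 with the replicate block and 0.39 in run 1. miR-499-5p was at -0.10 in run 2 for ICH_Sham and -0.0829 for MCAO against Naive, and in ICH at 0.0776 with library totals, 1.16 with no scaling, 0.10 with no filter, 0.0300 with the tag range term and 0.26 in run 1. For all operated groups it was at -0.0137 with limma voom, -0.29 in run 2 and -0.0799 without the 3 libraries. miR-206-3p in MCAO against Naive was at -0.0401 with library totals, -0.0499 with the tag range term, -0.0564 with the red cell covariate and -0.14 without the 3 libraries. Without single libraries the ranges across 0 were, between MCAO and its sham, -0.59 to 0.16 for miR-133b-3p and -0.15 to 0.45 for miR-499-5p; -0.36 to 0.0745 for miR-1a-3p in ICH against its sham; -0.15 to 0.30 for miR-1a-3p and -0.37 to 0.38 for miR-499-5p in MCAO_Sham against Naive; -0.12 to 0.23 for miR-206-3p and -0.22 to 0.59 for miR-499-5p in MCAO against Naive; and for miR-499-5p -0.24 to 0.45 in ICH and -0.11 to 0.55 in all operated groups against Naive.

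Replicate numbers recur across groups but did not pair the libraries: of 32 same-numbered pairs 10 had a correlation of deviations over 0.1 (from -0.28 to 0.37), and in 13 of 64 matches of a library with another group the best correlation was with its own number. The replicate block changed no count of called members in the 9 comparisons; it left 2 called in ICH_Sham against Naive and miR-1a-3p at 0.96 (edgeR adjusted p = 0.0332) between MCAO and MCAO_Sham. Over all miRNAs its largest change was from 17 to 26 calls for all operated groups. Depth limits miR-499-5p most, with a single count in ICH 1.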

Other observations

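In ICH 1 the members parted. miR-133a-3p (349.8 CPM) and miR-499-5p (9.99 CPM) were at their lowest of the 25 libraries there, as miR-133b-3p was, whereas miR-1a-3p at 14311 CPM was the median of its group and miR-206-3p at 14181 CPM its lowest. Without ICH 1, miR-133a-3p passed in ICH_Sham against Naive (1.34, edgeR adjusted p = 0.0233) and miR-133b-3p in ICH against Naive (1.38, adjusted p = 0.0215). ICH 1 is in neither group of the first comparison and enters it only through the scaling and spread shared by all libraries. In MCAO 4 and ICH 4, by contrast, miR-133a-3p, miR-133b-3p and miR-206-3p were all the highest of their groups. These libraries were singled out after their values were seen.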
